A study of Rattus norvegicus with 6 samples.

Results

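The 9 genes described here, Ppp1r1b, Meis2, Isl1, Zic1, Six3, Rgs9, Foxp1, Foxp2 and Pde10a, are known from medium spiny neurons of the striatum and from related GABA neurons of the central amygdala. They were taken by their rat symbols from a table of 38445 genes, and all 9 were found and tested among the 18141 genes with enough reads. The amygdala of adult male Sprague Dawley/WT rats was collected 1 h after an intraperitoneal injection of saline (control) or of ethanol at 1 g/kg (acute ethanol), and polyadenylated RNA was sequenced. Each group held 6 rats, and RNA of 2 rats was pooled for each library, which gave 3 libraries per group. The study's methods describe its amygdala dissections as holding the central, medial and basolateral nuclei together, and the rats for sequencing as a cohort of their own.

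None of the 9 genes passed the test between ethanol and saline, and for each of them the libraries of the 2 groups overlapped. Isl1, Six3, Foxp2, Rgs9, Ppp1r1b, Meis2 and Zic1 varied 1.90- to 5.61-fold between libraries. The third ethanol and the first control library were among the 3 highest for the first 5 of these genes, but the third ethanol library was not for Meis2, and the third control library was highest for Zic1. Foxp1 and Pde10a varied least of the 9.

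The central amygdala and the striatum both arise largely from the embryonic subpallium, and most of their neurons release GABA. Medium spiny neurons carry dopamine receptors that raise or lower cyclic AMP, and this messenger acts on protein kinase A. DARPP-32, the product of Ppp1r1b, is a target of that kinase and in its phosphorylated form inhibits protein phosphatase 1. Pde10a encodes a phosphodiesterase that degrades cyclic AMP and cyclic GMP, and Rgs9 encodes a protein that speeds the return of G proteins to their inactive state. Meis2, Isl1, Zic1, Six3, Foxp1 and Foxp2 encode transcription factors. ISL1 and SIX3 are known for the development of the neurons of the direct and indirect striatal pathways, respectively, and ISL1 also for that of cholinergic neurons.

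The libraries held 62576504 to 70755739 reads assigned to genes, so that 3 counts in a library stood for 0.0422 to 0.0473 CPM (counts per gene scaled to the size of the library). Sst and Prkcd (20.7 to 24.5 CPM), both on the list of central amygdala neuron markers, were present in every library. So was Slc17a7, the vesicular glutamate transporter of cortical-type neurons. The nucleus or cell type that these reads came from was not tested. Epithelium of the choroid plexus, a tissue outside the amygdala, was represented unequally: the summed level of 10 of its markers was 528 to 1142 CPM in the control libraries, 14.1 and 15.1 CPM in the first and second ethanol libraries and 489 CPM in the third. Of those markers, Otx2 was at 0 in 5 libraries and at 1 count in the other, and its level is not read here. In bulk tissue, fewer cells of a type and less RNA per cell cannot be told apart. Replicate numbers name libraries of different rats.

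Promoter sequences were available for 5 of the 9 genes (Isl1, Six3, Rgs9, Foxp1 and Pde10a). Those of Six3, Rgs9 and Pde10a are shown as examples of a transcription factor and a signaling protein with wide ranges across libraries and of an enzyme with a narrow one. Each is the 250 bases before the start of transcription, 5′ to 3′ on the strand of the gene, from RefSeq on the build GRCr8. Six3 lies at chr6:14796257-14796506 and Rgs9 at chr10:94770388-94770637, both on the minus strand, and capitals mark the CCAAT box on either strand (CCAAT or ATTGG).
Six3: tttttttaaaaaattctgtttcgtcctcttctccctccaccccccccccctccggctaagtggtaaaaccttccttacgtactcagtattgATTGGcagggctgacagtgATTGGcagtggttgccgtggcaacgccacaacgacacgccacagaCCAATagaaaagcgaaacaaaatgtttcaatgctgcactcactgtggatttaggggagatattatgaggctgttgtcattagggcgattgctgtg
Rgs9: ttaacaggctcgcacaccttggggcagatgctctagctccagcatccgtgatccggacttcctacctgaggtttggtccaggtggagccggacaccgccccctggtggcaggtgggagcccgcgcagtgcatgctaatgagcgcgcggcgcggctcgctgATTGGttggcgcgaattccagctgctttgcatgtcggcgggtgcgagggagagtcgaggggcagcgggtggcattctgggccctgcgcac
The first start of Pde10a lies at chr1:54765669-54765918 on the minus strand, and capitals mark the half-site of the cyclic AMP response element on either strand (TGACG or CGTCA).
Pde10a: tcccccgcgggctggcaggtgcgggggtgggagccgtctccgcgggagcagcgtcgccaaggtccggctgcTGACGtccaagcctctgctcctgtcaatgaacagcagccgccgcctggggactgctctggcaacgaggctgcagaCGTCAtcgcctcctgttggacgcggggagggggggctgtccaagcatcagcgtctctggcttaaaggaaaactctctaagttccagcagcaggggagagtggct
The Six3 window held 3 CCAAT boxes, at 159, 140 and 95 bases before the start (positions of their first base), and the Rgs9 window held 1. CCAAT boxes occurred in 34.0% of 33469 rat promoters of the same length. Pde10a held the cyclic AMP element half-site at 2 places, a motif found in 18.2% of those promoters, and its second start held none. Isl1 held 1 CCAAT box, and Foxp1 held 1 TATAAA box and 1 forkhead core (TGTTTAC), which occurred in 12.9% and 3.21% of promoters. The MEIS core TGACAG, in 15.8% of promoters, was present once in the Six3 window and once in the first Pde10a window, and the homeodomain core TAATTA, in 4.86%, was in none of the windows of these 5 genes. TGACG and TGACAG share their first letters but cannot start at the same base. These are matches of letters and not measured binding sites.

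Per kilobase of counted exon, Ppp1r1b was the highest of the 9 genes, at 32.7 ± 8.22 RPKM (reads per kilobase, scaled as the CPM; SD, n = 6 libraries). Meis2 followed at 22.5 ± 5.14 RPKM. Pde10a (9.41 ± 0.908 RPKM) and Rgs9 (8.37 ± 1.86 RPKM) came next, and their order changed between libraries, with Pde10a higher in 4 of 6. Zic1 was at 4.07 ± 1.12 RPKM, Six3 at 2.93 ± 0.758 RPKM, Foxp1 at 1.86 ± 0.164 RPKM, Foxp2 at 1.77 ± 0.522 RPKM and Isl1 at 0.694 ± 0.542 RPKM. The ranges of neighbours in this order were separate for Meis2 over Pde10a and for Six3 over Foxp1, and overlapped for the other neighbours. Foxp1 was above Foxp2 in 3 of 6 libraries. All exons of a gene counted toward its length, 16856 bases for Foxp1 and 1060 for Isl1, so a gene with many alternative exons is set low on this scale.

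**Figure D1:**
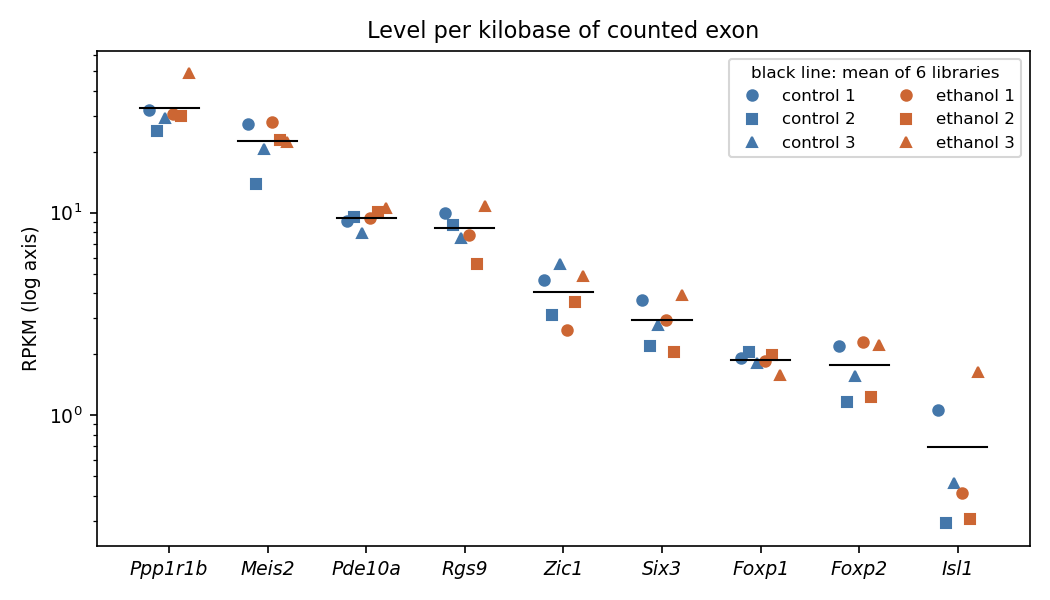
Level per kilobase of counted exon (RPKM, log axis) of the 9 genes in the 6 amygdala libraries, ordered by mean. Colours give the group, symbols the library and black lines the mean of 6 libraries. Ppp1r1b and Meis2 sit at the top, at 32.7 and 22.5 RPKM, and Isl1 at the bottom with a range that spans 0.292 to 1.64 RPKM.

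Of the 9 genes, 0 passed an adjusted p of 0.2 in the quasi-likelihood test of edgeR (p-values adjusted by the Benjamini-Hochberg method over all genes), and 0 had an unadjusted p below 0.05. Over all 18141 genes tested, 0% passed the adjusted threshold and 4.15% had an unadjusted p below 0.05. The likelihood ratio test of edgeR passed 77 genes and DESeq2 74 genes over the whole table, and each passed 0 of the 9. The groups did not separate for any of the 9 genes, against 3.65% of all genes with every ethanol library above every control library and 5.19% with every one below. Fitted log2 fold changes of ethanol over control were above 0 for 6 genes and below 0 for 3. Their median was 0.18, and that of all genes tested 0.0064. Over all genes tested, 9539 fold changes were above 0 and 8602 below. The edgeR adjusted p was 1.00 for each of the 9 genes. In a 2-sided exact permutation test over the 20 ways to assign the libraries to groups, whose smallest possible p is 0.1, p ranged from 0.2 (Pde10a) to 1 (Six3).

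Ppp1r1b, on chr10:86303727-86312770 of the build Rnor_6.0 (plus strand), stood at 93.0, 73.4 and 84.8 CPM in the control libraries 1, 2 and 3. In the ethanol libraries it stood at 89.3, 87.1 and 142 CPM. The third ethanol library was far above the others, which spanned 73.4 to 93.0 CPM, and the groups overlapped. The mean was 83.8 ± 9.83 CPM in controls and 106 ± 30.9 CPM after ethanol (SD, n = 3 libraries each). The log2 fold change was 0.34 (SE 0.19, 95% interval -0.10 to 0.78). Without the third ethanol library it was 0.076.

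Pde10a, on chr1:52360296-52544448 (minus strand), stood at 30.7, 32.4 and 26.8 CPM in controls and at 31.9, 34.3 and 35.7 CPM after ethanol. The first ethanol library lay between the 2 higher controls, so the groups overlapped. Its spread was the second smallest of the 9 genes, 1.33-fold from lowest to highest library. The mean was 30.0 ± 2.85 CPM in controls and 34.0 ± 1.93 CPM after ethanol (SD, n = 3 each). The log2 fold change was 0.18 (SE 0.09, 95% interval -0.02 to 0.38), and its unadjusted p of 0.0705 in edgeR was the smallest among the 9 genes. With 1 library left out, the estimate ranged from 0.11 (without the third control) to 0.24 (without the second control).

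Rgs9, on chr10:97509971-97582188 (minus strand), stood at 24.1, 21.1 and 18.2 CPM in controls and at 18.8, 13.4 and 26.0 CPM after ethanol. The lowest and the highest libraries were both ethanol libraries. The mean was 21.2 ± 2.94 CPM in controls and 19.4 ± 6.31 CPM after ethanol (SD, n = 3 each), and the log2 fold change was -0.12 (SE 0.22, 95% interval -0.64 to 0.39). Without the second ethanol library the estimate was above 0, at 0.084, and without the third ethanol library it was -0.39.

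**Figure D2:**
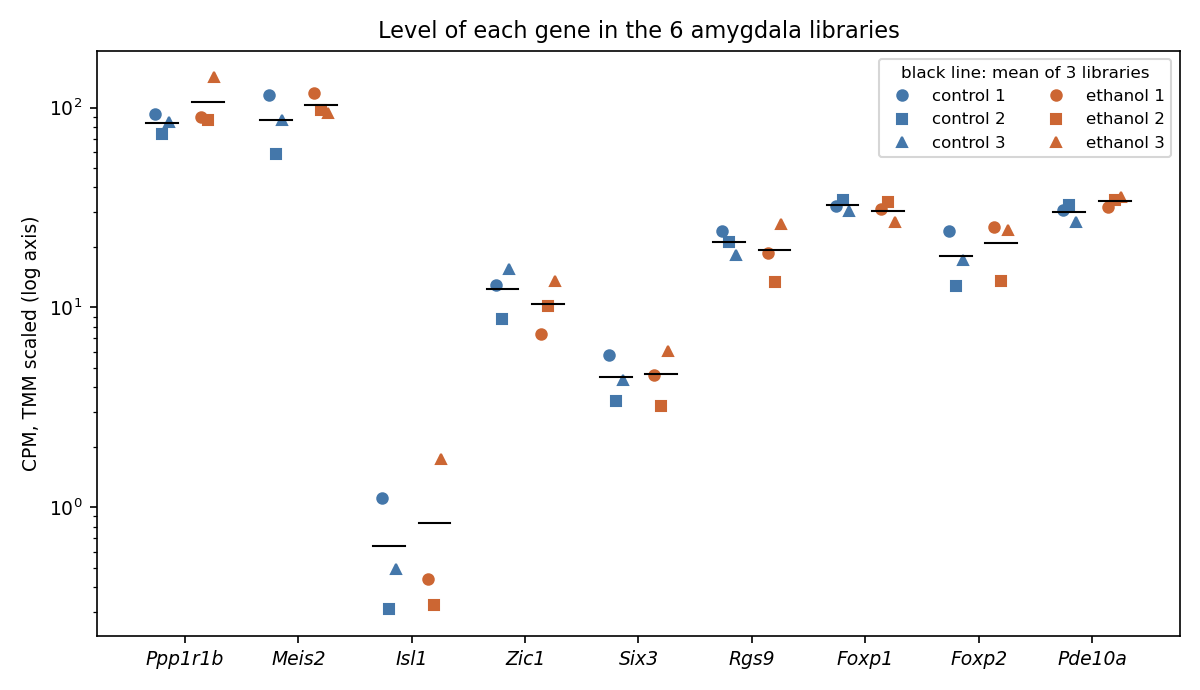
Level of each gene in CPM (log axis) in the 3 control (blue) and 3 ethanol (orange) amygdala libraries, with symbols for the library number and black lines for the mean of 3 libraries. The groups overlap for each of the 9 genes, and the third ethanol library (triangle) is highest for Ppp1r1b, Isl1, Six3, Rgs9 and Pde10a.

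Isl1, a LIM homeodomain factor, lies on chr2:48488911-48501217 (minus strand). It had 73, 22 and 31 counts in controls and 28, 21 and 121 counts after ethanol, which came to 1.12, 0.310 and 0.489 CPM and to 0.436, 0.326 and 1.74 CPM. The first control and the third ethanol library stood above the other 4, which lay between 0.310 and 0.489 CPM, and the range was 5.61-fold, the widest of the 9 genes. The mean was 0.638 ± 0.424 CPM in controls and 0.834 ± 0.785 CPM after ethanol (SD, n = 3 each). The log2 fold change was 0.40 (SE 0.69, 95% interval -1.20 to 2.00), and with both of those libraries left out it was -0.066.

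Six3, a homeobox factor of the sine oculis family, lies on chr6:8886730-8891094 (plus strand in that build). It stood at 5.77, 3.41 and 4.34 CPM in controls and at 4.61, 3.20 and 6.08 CPM after ethanol. The order of its libraries was close to that of Isl1, with the third ethanol and the first control library on top and the second library of each group at the bottom. The mean was 4.50 ± 1.19 CPM in controls and 4.63 ± 1.44 CPM after ethanol (SD, n = 3 each), with a log2 fold change of 0.04 (SE 0.26, 95% interval -0.57 to 0.66). With 1 library left out, the estimate lay between -0.20 (without the third ethanol) and 0.25 (without the first control).

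Meis2, a homeodomain factor of the TALE class on chr3:107560172-107762732 (minus strand), stood at 116, 58.7 and 86.9 CPM in controls and at 118, 96.7 and 93.9 CPM after ethanol. The second control library was the lowest, and the first library of either group was the highest. The mean was 87.1 ± 28.6 CPM in controls and 103 ± 13.2 CPM after ethanol (SD, n = 3 each), with a log2 fold change of 0.24 (SE 0.22, 95% interval -0.27 to 0.75). Without the first control and the third ethanol library, the other controls were both below the other ethanol libraries, and the estimate was 0.55 with an adjusted p of 0.573 in edgeR. Without the second control library alone the estimate was 0.021, and with 1 other library left out it lay between 0.13 (first ethanol) and 0.49 (first control).

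Zic1, a zinc finger factor on chr8:98733715-98738960 (minus strand), stood at 13.0, 8.77 and 15.6 CPM in controls and at 7.36, 10.1 and 13.6 CPM after ethanol. Its highest library was the third control and its lowest the first ethanol library. The mean was 12.4 ± 3.43 CPM in controls and 10.4 ± 3.14 CPM after ethanol (SD, n = 3 each), with a log2 fold change of -0.26 (SE 0.26, 95% interval -0.87 to 0.35). The estimate was -0.063 without the first ethanol library, -0.065 without the third control, -0.46 without the second control and -0.51 without the third ethanol library.

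Foxp1 and Foxp2 encode forkhead repressors that can pair with each other. Foxp1, on chr4:131362178-131963466 (minus strand), stood at 32.1, 34.6 and 30.5 CPM in controls and at 31.1, 33.5 and 26.7 CPM after ethanol. Its spread of 1.30-fold was the smallest of the 9 genes, and its lowest library was the third ethanol library, in which 5 of the other genes were highest. The mean was 32.4 ± 2.06 CPM in controls and 30.4 ± 3.46 CPM after ethanol (SD, n = 3 each), with a log2 fold change of -0.09 (SE 0.10, 95% interval -0.31 to 0.13). Foxp2, on chr4:41364441-41944685 (plus strand), stood at 24.2, 12.8 and 17.2 CPM in controls and at 25.2, 13.5 and 24.5 CPM after ethanol. The second library of each group was low in Foxp2, and the first of each group and the third ethanol library were high. The mean was 18.1 ± 5.79 CPM in controls and 21.1 ± 6.55 CPM after ethanol (SD, n = 3 each), with a log2 fold change of 0.22 (SE 0.28, 95% interval -0.44 to 0.88). The Foxp2 estimate was 0.026 without the second control, 0.074 and 0.10 without the first ethanol and without the third ethanol library, 0.46 without the second ethanol and 0.49 without the first control library. The ratio of Foxp2 to Foxp1, in RPKM, was 1.15, 0.563 and 0.858 in controls and 1.24, 0.616 and 1.40 after ethanol, a range of 2.48-fold.

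**Figure D3:**
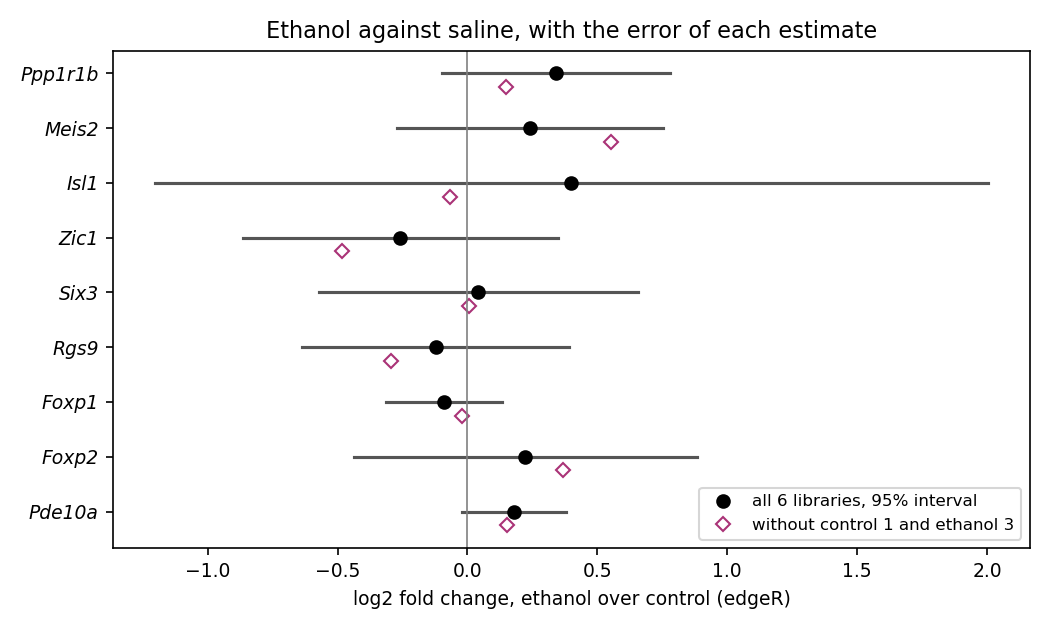
Log2 fold change of ethanol over control in edgeR for the 9 genes, as points with 95% intervals from all 6 libraries, and as open diamonds without the first control and the third ethanol library. Each interval includes 0, from -0.02 to 0.38 for Pde10a at its narrowest and from -1.20 to 2.00 for Isl1 at its widest.

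Across the 6 libraries, the 9 genes ranged from 1.30-fold (Foxp1) to 5.61-fold (Isl1) between the lowest and the highest library. Among the 14760 genes tested with a mean above 1 CPM, the median of this range was 1.23-fold and the upper quartile 1.39-fold. Ppp1r1b (1.93-fold), Meis2 (2.01-fold), Zic1 (2.12-fold), Six3 (1.90-fold), Rgs9 (1.93-fold) and Foxp2 (1.98-fold) were above that quartile, and Foxp1 and Pde10a (1.33-fold) below it. Isl1 has a mean below 1 CPM, outside that set, and its range rests on 21 to 121 counts. The third ethanol library was highest for 5 of the 9 genes and the second control library lowest for 4.

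Levels of Isl1 and Six3 went together, with Pearson r = 0.93 and Spearman rho = 0.89 of log2 CPM over the 6 libraries. With control 1 and ethanol 3 left out, r was 0.91. Here and below, the 2 libraries left out were those farthest from the median of 1 gene of the pair, not of both. That gene was Isl1 in its pairs, Ppp1r1b in its pair and Six3 in the rest. Six3 and Foxp2 gave r = 0.91, and 0.88 without ethanol 2 and ethanol 3. Six3 and Rgs9 gave r = 0.80, which was 0.41 without those 2 libraries. Ppp1r1b and Foxp1 went opposite ways (r = -0.92), but the sign turned to 0.24 without 2 libraries. Foxp1 also went opposite to Isl1 (r = -0.80, and -0.99 without 2 libraries) and to Six3 (r = -0.77, and -0.56 without 2 libraries). Each r without 2 libraries rests on the 4 left. In the 4 left for Isl1 it had only 21 to 31 counts, so its values of 0.91 and -0.99 rest on small differences in few counts. Of the 36 pairs among the 9 genes, 8 had r above 0.7 and 3 below -0.7, and no pair of Pde10a was among them. The share of such pairs among all genes was not counted, so these counts do not set the 9 genes apart. All r values here describe 6 libraries or fewer, come with no test and share the scaling of each library.

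Of the 21 striatal-type markers, 10 had their 2 highest levels in the first control and the third ethanol library, 1 had its 2 lowest there, and 10 had neither. Adora2a, an adenosine receptor of indirect pathway neurons, stood at 10.8, 3.11 and 5.90 CPM in controls and at 5.31, 3.36 and 9.32 CPM after ethanol. It was highest in the first control and the third ethanol library and lowest in the second library of each group, and Six3 gave r = 0.97 with it over the 6 libraries. Adora2a was picked from the list after its values were seen, and others of the list went another way. Bcl11b was lowest in the third ethanol library (104 CPM against 115 to 146 CPM elsewhere), and so were Gpr52 and Rxrg. Pde10a gave r = -0.09 with Adora2a.

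Markers of some other cell types moved with the first control and the third ethanol library. Of 14 central amygdala markers, 2 had their 2 highest levels there, 2 their 2 lowest and 10 neither. Of 10 choroid plexus markers, 10 had neither. Chat, which marks cholinergic neurons, was at 7.95 CPM in the first control and 4.31 CPM in the third ethanol library and at 0.253 to 1.28 CPM in the other 4. The summed level of 5 cholinergic markers was 40.7, 6.76 and 9.86 CPM in controls and 9.88, 7.55 and 22.8 CPM after ethanol. Summed levels of 11 hypothalamic and medial amygdala markers reached 369 CPM in the third ethanol library against 41.3 to 138 CPM elsewhere. They were 138 CPM in the first and 122 CPM in the third control. Most of the 369 CPM came from Pmch, the precursor of melanin-concentrating hormone, at 207 CPM there and at 2.12 to 14.5 CPM elsewhere. Of the 11, 4 had their 2 highest levels in the first control and the third ethanol library, and 7 had neither. The 8 oligodendrocyte markers summed to 8659 CPM in the first control and 10054 CPM in the third ethanol library and to 3718 to 6281 CPM in the others. The 12 cortical-type markers were lowest in those same 2 libraries, at 816 and 834 CPM against 1017 to 1496 CPM. Isl1 gave r = -0.96 with Neurod6, a cortical-type marker chosen after its values were seen, and Foxp1 gave r = 0.88. Of the 12 cortical-type markers, 7 had their 2 lowest levels in those libraries, while Rorb and Cux2 were highest in the third ethanol library (71.3 and 63.8 CPM). The part of these cell types in the levels of the 9 genes was not tested.

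**Figure D4:**
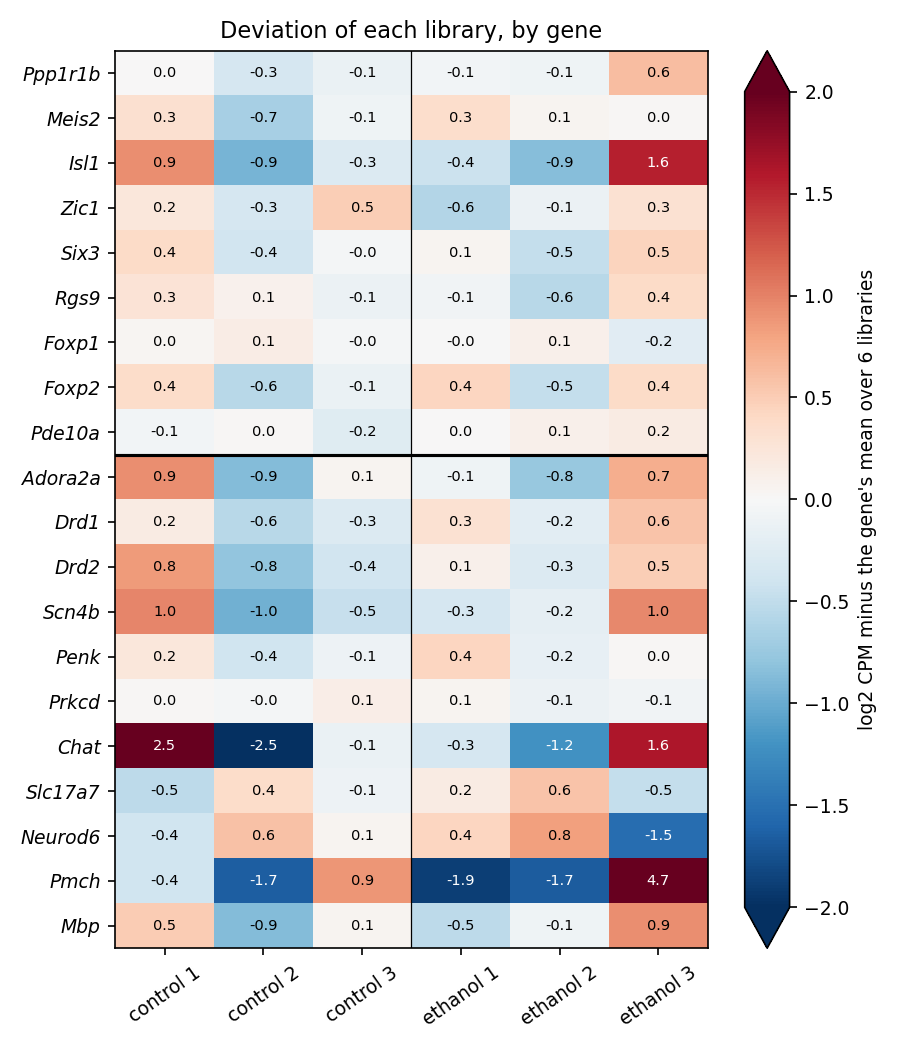
Deviation of each library from the mean of 6 libraries (log2 CPM) for the 9 genes, above the line, and for 11 markers below it (striatal-type Adora2a to Penk, central amygdala Prkcd, cholinergic Chat, cortical-type Slc17a7 and Neurod6, hypothalamic Pmch, oligodendrocyte Mbp). All of the 9 genes but Foxp1 and Pde10a are above their mean in the first control and the third ethanol library. So are Adora2a and Chat, while Slc17a7 and Neurod6 are below theirs. Ppp1r1b is barely above its mean in the first control (0.0034), and Meis2 in the third ethanol library (0.018).

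Of 21 striatal-type marker genes, 0 passed the adjusted test in either direction. 17 had fold changes above 0 and 4 below, with a median of 0.12. Penk and Tac1, the precursors of enkephalin and substance P, had the highest levels per length in this list. Penk stood at 224, 144 and 177 CPM in controls and at 257, 170 and 193 CPM after ethanol, with overlapping groups. Tac1 stood at 61.4, 50.1 and 47.7 CPM in controls and 38.3, 32.8 and 51.1 CPM after ethanol, with a log2 fold change of -0.38 (SE 0.17), and its groups overlapped. Gpr6, a receptor of indirect pathway neurons, was the gene of this list with an unadjusted p below 0.05 in edgeR (log2 fold change 0.34, SE 0.14, adjusted p 1.00), and stood at 3.90, 3.73 and 3.88 CPM in controls and 4.04, 5.49 and 5.03 CPM after ethanol. Summed over the list, levels were 724 to 935 CPM in controls and 785 to 931 CPM after ethanol.

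The central amygdala list of 14 genes had 9 fold changes above 0 and 5 below, with a median of 0.02, and 0 passed the adjusted test. Sst, encoding somatostatin, stood at 154, 167 and 132 CPM in controls and 158, 162 and 134 CPM after ethanol. Wfs1, also prominent in other amygdala and cortical neurons, stood at 186, 207 and 207 CPM in controls and at 293, 284 and 182 CPM after ethanol. Groups overlapped for both genes. Cartpt, a neuropeptide precursor (log2 fold change 0.45, SE 0.18), and Ezr, a linker of membrane and actin (log2 fold change -0.24, SE 0.09), were the genes with an unadjusted p below 0.05 in edgeR, and both had an adjusted p of 1.00. With the first control and the third ethanol library left out, Ezr had a log2 fold change of -0.37 and an adjusted p of 0.198.

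In the signaling path around DARPP-32, 26 of 27 listed genes were tested. The regulatory subunits of protein kinase A, Prkar1a and Prkar1b, had the highest levels per length. Prkar1a ranged from 755 to 843 CPM over the 6 libraries and Prkar1b from 593 to 728 CPM, each with overlapping groups. In this list 23 fold changes were above 0 and 3 below, with a median of 0.08, against 9539 above and 8602 below over all genes tested. Genes of a list, here and elsewhere, share the 6 libraries, so their signs are not independent of each other. In edgeR, 0 genes of the list passed the adjusted test or had an unadjusted p below 0.05. The gene not tested was Ppp2ca, a phosphatase subunit that every cell uses, which was at 0 or 1 count in each library, and its level is not read here.

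Around Rgs9, 5 of 7 partners and relatives were tested, and all 5 fold changes were above 0 (median 0.18) while that of Rgs9 itself was below 0. Rgs7bp, a membrane anchor of the family to which RGS9 belongs, stood at 191, 216 and 166 CPM in controls and 273, 314 and 193 CPM after ethanol, with a log2 fold change of 0.45 (SE 0.18). Rgs6, a relative of Rgs9, stood at 15.4, 15.04 and 17.0 CPM in controls and 17.6, 17.9 and 22.4 CPM after ethanol, with groups that did not overlap and a log2 fold change of 0.29 (SE 0.11). Both had an unadjusted p below 0.05 and an adjusted p of 1.00 in edgeR. Gnb5, the beta subunit that stabilizes RGS proteins of this family, ranged from 92.8 to 103 CPM, and Rgs7 from 99.2 to 120 CPM. The smallest adjusted p of Rgs7bp over the analyses run was 0.213 in edgeR, with a log2 fold change of 0.62. It came without the third ethanol library, where 83 genes of the whole table passed.

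The relatives of the transcription factors fell on both sides of 0, with 4 fold changes above and 8 below among 12 tested of 14 (median -0.17), and 0 passed the adjusted test. Zic1 and the relatives of it named here lay below 0. The log2 fold changes were -0.26 for Zic1, -0.22 for Zic2, -0.47 for Zic4 and -0.36 for Zic5 (SE 0.12), and each of these 4 stayed below 0 in the 15 other analyses run, including those with other library scalings. Zic5 stood at 10.1, 13.9 and 13.1 CPM in controls and at 9.51, 9.53 and 9.88 CPM after ethanol. The groups of Zic5 did not overlap, and its unadjusted p was below 0.05 but its adjusted p 1.00 in edgeR. ZIC genes are also expressed in the meninges. Of 7 leptomeningeal fibroblast markers tested, 1 had a log2 fold change above 0 and 6 below, with a median of -0.14. The lowest was -0.69 (SE 0.23), for Dcn. The summed level of 8 such markers was 181, 180 and 348 CPM in controls and 125, 255 and 198 CPM after ethanol. Of those 8, Col1a2 was listed at 0 in every library. The part of meningeal cells in the Zic levels was not tested. Foxp4 and Zic2 had the highest levels per length among these relatives, and Foxp4 ranged from 51.2 to 59.3 CPM.

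Among 18 regulators of subpallial and GABA neurons, 6 fold changes were above 0 and 12 below (median -0.07), and 0 passed the adjusted test. Gad1 and Gad2, the enzymes that make GABA, had overlapping groups and log2 fold changes of -0.08 and -0.09. Lhx6, a factor of interneurons from the medial ganglionic eminence, stood at 45.7, 42.2 and 35.5 CPM in controls and at 35.5, 32.4 and 35.4 CPM after ethanol. The third control and the first ethanol library were almost level in Lhx6, and the log2 fold change was -0.26 (SE 0.10) with an adjusted p of 1.00 in edgeR.

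For each of the 9 genes, the most similar patterns over the 6 libraries were sought among 13401 named genes (13402 for Isl1) above 1 CPM in every library. Six3 was closest to the pseudogene Zfp273l-ps1 (r = 0.99) and to Sp8, a zinc finger factor of the subpallium (r = 0.99), which stood at 4.33, 2.41 and 3.34 CPM in controls and at 3.47, 2.24 and 4.32 CPM after ethanol. Ppp1r1b was closest to Bphl and Pnrc1-ps1, Meis2 to Cenpn and Prkar2b, Isl1 to Gfer and Pfdn2, Zic1 to Map7d3 and Ift43, and Rgs9 to Cenatac and Ebf4. Foxp1 was closest to Blm and Arhgef6, Foxp2 to Pid1 and Atl2, and Pde10a to Spsb3 and Tecr. The r was 0.98 or more for each of these pairs. They were picked as the best of many candidates over 6 libraries and are a description.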

How the data were processed

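Amygdala RNA of 6 libraries was sequenced in single-end reads of 100 nt on 3 lanes after a stranded, polyadenylated RNA preparation. The submitters' processing notes name FastQC 0.11.8, STAR 2.7.0f, featureCounts of Subread 1.6.3, R 3.6.2, edgeR and limma. The authors deposited raw counts per gene and library for 38445 genes, of which 29322 carry a symbol, on the build Rnor_6.0, counted by strand (setting 2 of featureCounts per the file headers). Reads of overlapping genes on the opposite strand are thus kept apart, and the 9 genes share no exon bases with another gene.

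Genes were filtered with filterByExpr (minimum count 10, total 15) and scaled by TMM. Groups were compared with the quasi-likelihood test of edgeR 4.0.16 in R 4.3.3, without covariates, with Benjamini-Hochberg adjustment over 18141 genes and a threshold of 0.2. The test was tested on simulated data. Levels are CPM on TMM library sizes, and RPKM where genes are compared. Correlations used log2 CPM with a prior count of 2. Intervals are 95% intervals of the fit. Fold changes were also computed with library size alone, RLE scaling, other filters, the likelihood ratio test, DESeq2 1.42.0, limma-voom 3.58.1, the replicate number as a block and each library left out. Leaving out the first control and the third ethanol library together was added after the data were seen. Each library pools rats, so p-values measure the spread between pools.

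The 9 genes and the gene lists (DARPP-32 and cyclic AMP signaling, RGS9 relatives, transcription factor relatives, and markers of striatal, central amygdala, subpallial, cortical, choroid plexus, leptomeningeal, cholinergic, hypothalamic, thalamic and oligodendrocyte cells) were chosen with earlier results of these data known. Of each list, the text names the 2 genes with the highest level per length and those with an unadjusted p below 0.05, and other genes where stated. Some genes of the lists that entered the counts are not reported here by name. Of each of the 9 genes, the 2 most correlated genes with a symbol are named.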

Additional observations from a re-analysis of the deposited data

How the results depend on the processing

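Under every alternative, 0 of the 9 genes passed the adjusted threshold, and the smallest adjusted p among them was 0.567, for Rgs9. The number of all genes passing was 0 in the main test, 77 in the likelihood ratio test, 74 in DESeq2 and 0 to 83 with 1 library left out, the last without the third ethanol library. Without the first ethanol library it was 4, and 87 without both the first control and the third ethanol library. The cause was not tested. The number of the 9 genes with separate groups was 0 with all libraries and 0 to 2 with 1 library left out: Ppp1r1b and Meis2 without the first control, Pde10a without the second control or the first ethanol library, and Foxp2 without the second ethanol library. It was 2 (Ppp1r1b and Meis2) with both of the libraries named above left out, which leaves 2 against 2. Smaller groups separate more easily by the order of libraries alone, and the share over all genes was not counted in these settings. The sign turned for Six3 without the second control (-0.12) or the third ethanol library (-0.20; range -0.20 to 0.25 over libraries left out), for Rgs9 without the second ethanol library (0.084; range -0.39 to 0.084), and for Isl1 without the third ethanol library (-0.73; range -0.73 to 1.07) or both libraries (-0.066). Isl1 had no value under the filter above 1 CPM. Signs of the other 6 genes held in 15 alternatives.

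With the replicate number as a block, 0 genes passed (smallest adjusted p 0.483, and 1015 genes with an unadjusted p below 0.05 against 753 without the block), and no call among the 9 genes changed. Same-numbered libraries correlated by 0.0264, 0.388 and 0.211 in their deviations from the group means. The 0.388 of the second libraries was the highest among all pairs of a control and an ethanol library. The first control correlated best with the third ethanol library (0.305). The labels do not say what the number marks, and whether it marks a batch was not tested.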

Other observations

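No marker of the other cell types passed the adjusted edgeR test, and the summed levels of the 2 groups overlapped for each of these lists but the choroid plexus one. Tbr1, a factor of glutamatergic neurons, had the smallest adjusted p of the listed genes (0.818 in edgeR), at 15.1, 13.7 and 14.9 CPM in controls and 22.8, 21.0005 and 20.01 CPM after ethanol, a log2 fold change of 0.55 (SE 0.08). It was the cortical-type gene with an unadjusted p below 0.05, of 12 genes with 10 fold changes above 0 and 2 below (median 0.10). Ttr, the transthyretin transcript of choroid plexus, stood at 462, 996 and 817 CPM in controls and at 5.42, 4.34 and 425 CPM after ethanol. All 9 tested choroid plexus markers had fold changes below 0 (median -1.85), and 5 of them, Kcnj13, Folr1, Kl, Sostdc1 and Kcne2, had an unadjusted p below 0.05.

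Avp, the vasopressin precursor, stood at 60.3, 2.84 and 45.6 CPM in controls and at 12.5, 5.44 and 69.1 CPM after ethanol, and its list of 11 hypothalamic genes had 7 fold changes above 0 and 4 below (median 0.19). The 5 cholinergic fold changes were all below 0 (median -0.47), the 8 oligodendrocyte ones all above 0 (median 0.18), and the 7 thalamic ones were above 0 for 2 genes and below 0 for 5 (median -0.12). Of 7 leptomeningeal genes tested, 1 fold change was above 0 and 6 were below (median -0.14). Of these 5 lists, Dcn alone had an unadjusted p below 0.05.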
